A study of Procambarus virginalis with 4 samples.

Results

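In hemocytes of the marbled crayfish, 100 transcribed features differed at least 4-fold between the control libraries, on the scale of log2(TPM + 1), and in 72 of them both knockdown libraries lay nearer control replicate 2 than control replicate 1. This was so in 54.1% of all features tested and in 69.0% of those with a control difference just below the limit, from 1.5 to 2, so that it was not particular to the 100 features. TPM is a read count scaled for feature length and library size. The 100 features were chosen by 4 conditions on their values. Their mean TPM over the 4 libraries was at least 1, and their log2(TPM + 1) differed by at least 2 between control replicates 1 and 2. They were not among the 100 most abundant features, and the lower value of one group was not 3 times the higher value of the other or more. The mean condition left 21674 of 111422 deposited features, called the tested features here, and 108 of these, or 0.498%, passed the control difference. None of the 108 was among the 100 highest, and 8 were left out because the groups were separated, of which 7 were lower and 1 higher in knockdown. The control values chose these features, so that the size of the control difference is given as a description, without a test.

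Hemocytes are the circulating cells of crayfish hemolymph, and act in encapsulation, coagulation, antimicrobial defense and melanization. They are commonly divided into hyaline, semigranular and granular cells, which differ in maturity and in the immune proteins that they store, and some hemocytes can give rise to neuronal precursors in adult crayfish. Marbled crayfish reproduce by parthenogenesis, and their offspring are genetically near identical.

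The libraries came from total RNA of hemocytes bled 28 days after injection of double-stranded RNA into the hemolymph of *Procambarus virginalis*. The 2 control animals received dsGFP, directed at a green fluorescent protein that crayfish lack, and the 2 knockdown (KD) animals received dsDnmt1, directed at the maintenance DNA methyltransferase *Dnmt1*. The animals of the study were females raised in the laboratory, 1 to 3 years old. Each library is taken as 1 animal as the design text has it, and the labels give replicate numbers without further pairing. The features are named by a scaffold and a number, and nothing in the files pairs them with gene names. The knockdown and the hemocyte label could therefore not be checked on *Dnmt1* or on cell type markers, and the features carry no known function here. RNA was measured in bulk, so that fewer cells of a type and less RNA per cell cannot be told apart.

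Reads recovered from the TPM values summed to 24261401 and 29977177 in controls 1 and 2, and to 30782726 and 27933486 in KD 1 and 2. Over all tested features, the KD libraries lay closer to control 2 and to each other than to control 1. A total of 415 features differed by at least 2 between control 1 and KD 1 and 295 between control 1 and KD 2, against 144 and 139 for control 2 and the same KD libraries, and 25 between the KD libraries. Between the controls it was 108, fewer than between control 2 and either KD library, while the median absolute difference was 0.37 between the controls and 0.23 and 0.25 between control 2 and KD 1 and KD 2. Control 1 also had the fewest reads, the most tested features at 0 TPM, 107 against 29 to 39 in the other libraries, and the smallest share of TPM in its single highest feature, 9.23% against 13.1% to 16.7%. The part of these library properties in the results below was not tested.

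Control 2 was the higher control in 69 of the 100 features and control 1 in 31. Among all tested features control 1 was higher in 51.9% and control 2 in 48.0%. The difference passed the limit with control 1 higher in 0.157% and with control 2 higher in 0.341% of tested features, before the 8 were left out. The median absolute control difference was 2.33 on the log2 scale where control 1 was higher and 2.27 where control 2 was higher, against 0.37 over all tested features. It reached 3.95 and 4.42, and 10 features differed by 3 or more, of which 5 were higher in each control. Of the 56 features whose mean TPM reached 5, control 1 was the higher in 10 and control 2 in 46. That mean includes the KD libraries, which mostly lay nearer control 2, so that the cut is not even between the directions.

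**Figure D1:**
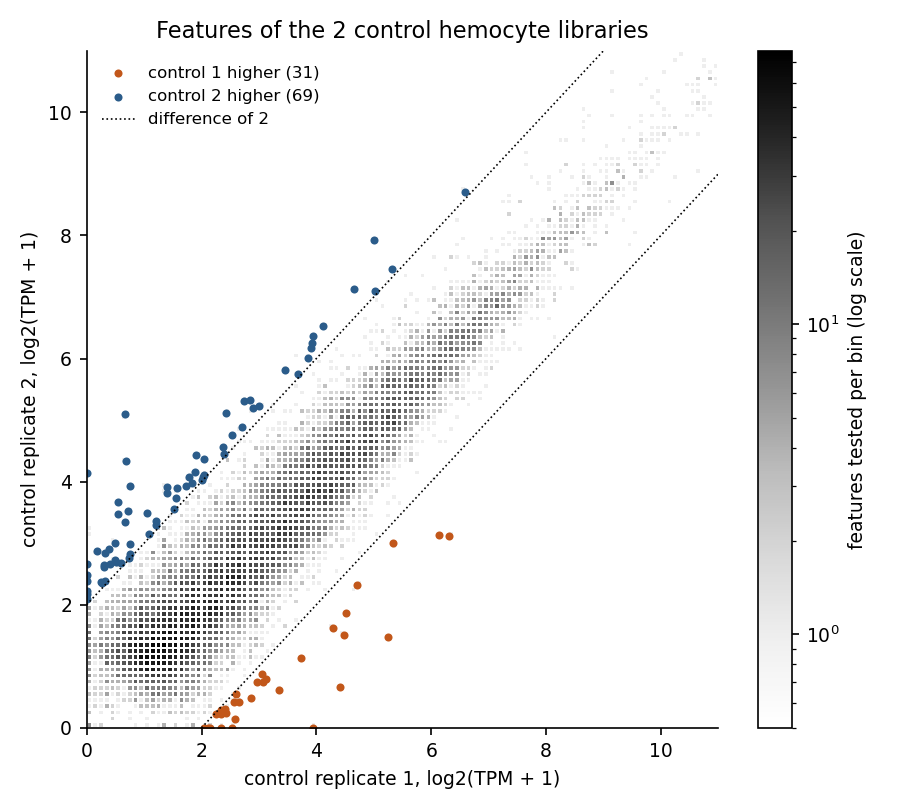
Level of the tested features in control replicate 1 (x axis) and control replicate 2 (y axis), as log2(TPM + 1), with the 100 chosen features as coloured points and the other tested features as a grey density up to a level of 11. The 69 features higher in control 2 lie above the upper limit of the difference of 2, and the 31 higher in control 1 lie below the lower limit.

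The limit cut through a continuous range of differences. A total of 19 chosen features differed by 2 to 2.1, and 32 otherwise eligible features differed by 1.9 to 2. The feature just inside had a TPM of 3.04 and 15.3 in controls 1 and 2, and of 40.5 and 23.9 in KD 1 and 2. The feature just outside had 8.34 and 36.4 in the controls and 42.6 and 30.3 in KD. Control 1 was the lowest library in both.

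The features were then grouped by whether each KD library lay nearer control 1 or control 2, with the midpoint between the controls on the log2(TPM + 1) scale as the divide. In 72 of the 100 features both KD libraries lay nearer control 2, in 15 both lay nearer control 1, and in 13 they were split. Control 1 was thus the control farther from the KD libraries in 72 features, low in 48 and high in 24, and control 2 in 15, high in 13 and low in 2. Some features passed the midpoint only narrowly, such as one with a TPM of 0 in control 1, 3.28 in control 2, 1.18 in KD 1 and 1.10 in KD 2, which was counted as nearer control 2. Over all tested features both KD libraries lay nearer control 2 in 54.1%, nearer control 1 in 19.5% and split in 26.3%.

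The 48 features that were low in control 1 formed the largest group. Their median TPM was 1.89 in control 1, 13.9 in control 2, 16.5 in KD 1 and 10.3 in KD 2. Their mean TPM over the 4 libraries had the highest median of any group, 10.1, and reached 357. Such a mean depends on how many libraries are high, so that this follows in part from the grouping. The most abundant of these features had a TPM of 95.6 in control 1, 419 in control 2, 393 in KD 1 and 521 in KD 2, from 2877, 16497, 16144 and 19181 reads. The 3 upper libraries of that feature lay close together and control 1 lay below all of them. The feature with the largest control difference in the group had a TPM of 0.615 in control 1, 19.3 in control 2, 18.6 in KD 1 and 9.04 in KD 2, and rested on 3 reads in control 1 against 123 in control 2. Control 2 and KD 1 were alike in this feature and KD 2 was intermediate. One feature had no read in control 1 and a TPM of 5.31 in control 2, 17.5 in KD 1 and 10.2 in KD 2. As in this feature, both KD libraries lay above control 2, and so above both controls, in 21 of the 48. Over all tested features, which were not grouped in this way, KD lay above both controls in 18.0%.

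In 24 features control 1 was the high library. Their median TPM was 7.27 in control 1, 0.499 in control 2, 0.943 in KD 1 and 0.674 in KD 2. Over the 4 libraries they had a median mean TPM of 2.60 and a median of 174 reads, against 521 reads in the features that were low in control 1. With control 1 alone high, low values over the 4 libraries follow in part from the grouping. In the higher control the median TPM was 7.27 here and 13.9 in the features that were low in control 1. WNGS01115803.1531288_1_covsplit had the largest difference, with a TPM of 14.4 in control 1, 0 in control 2, 0.115 in KD 1 and 0.129 in KD 2. These values came from 183, 0, 2 and 2 reads over 851 bases, so that nearly all of its reads were from control 1. The ratio of its read shares between the controls had an exact 95% lower limit of 60.7, and no upper limit, since control 2 had no read. This limit and the intervals below cover counting error only. They make no allowance for the choice of these features by their large control difference, which favors large ratios. They are therefore a description of the read counts.

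A set of 3 such features had close numbers on 1 scaffold. The features, with numbers 315847, 315848 and 315850, had a TPM of 12.3, 21.4 and 36.8 in control 1 and of 1.20, 1.85 and 1.78 in control 2. In KD 1 they had 1.77, 2.16 and 1.08, and in KD 2 0.428, 1.05 and 1.38. All 3 were high in control 1 alone. Of the more abundant features, one had a TPM of 78.0 in control 1, 7.64 in control 2, 4.79 in KD 1 and 4.82 in KD 2, from 608, 78, 51 and 46 reads. Another had 69.6 in control 1, 7.76 in control 2, 7.51 in KD 1 and 10.1 in KD 2. Control 1 alone was high in both. Both KD libraries lay below control 2, and so below both controls, in 3 of the 24. Over all tested features, which were not grouped in this way, it was 23.2%.

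In 13 features control 2 was the high library. Their median TPM was 11.7 in control 2, 0.467 in control 1, 0.735 in KD 1 and 0.475 in KD 2. Their median control difference was 2.69, the largest of the 5 groups. The most different of them had a TPM of 16.6 in control 2, 0 in control 1, 0 in KD 1 and 0.155 in KD 2, from 115 reads in control 2 and 1 read in all others together. Another had a TPM of 0.693 in control 1, 14.2 in control 2, 0.325 in KD 1 and 0.475 in KD 2, from 25, 672, 16 and 21 reads. Control 2 alone was high in both. The most abundant had a TPM of 31.1 in control 1, 243 in control 2, 79.0 in KD 1 and 54.0 in KD 2, from 1414, 14507, 4911 and 3009 reads, and here the KD libraries lay above control 1 though nearer to it. Both KD libraries lay below control 1, and so below both controls, in 5 of the 13, against 23.2% of tested features, which were not grouped in this way.

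In 2 features control 2 was the low library. One had a TPM of 4.36 in control 1, 0.175 in control 2, 2.02 in KD 1 and 2.25 in KD 2, with 1 read in control 2. The other had 7.38 in control 1, 0.679 in control 2, 9.31 in KD 1 and 10.8 in KD 2, from 108, 13, 186 and 193 reads. In the second, both KD libraries lay above both controls.

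**Figure D2:**
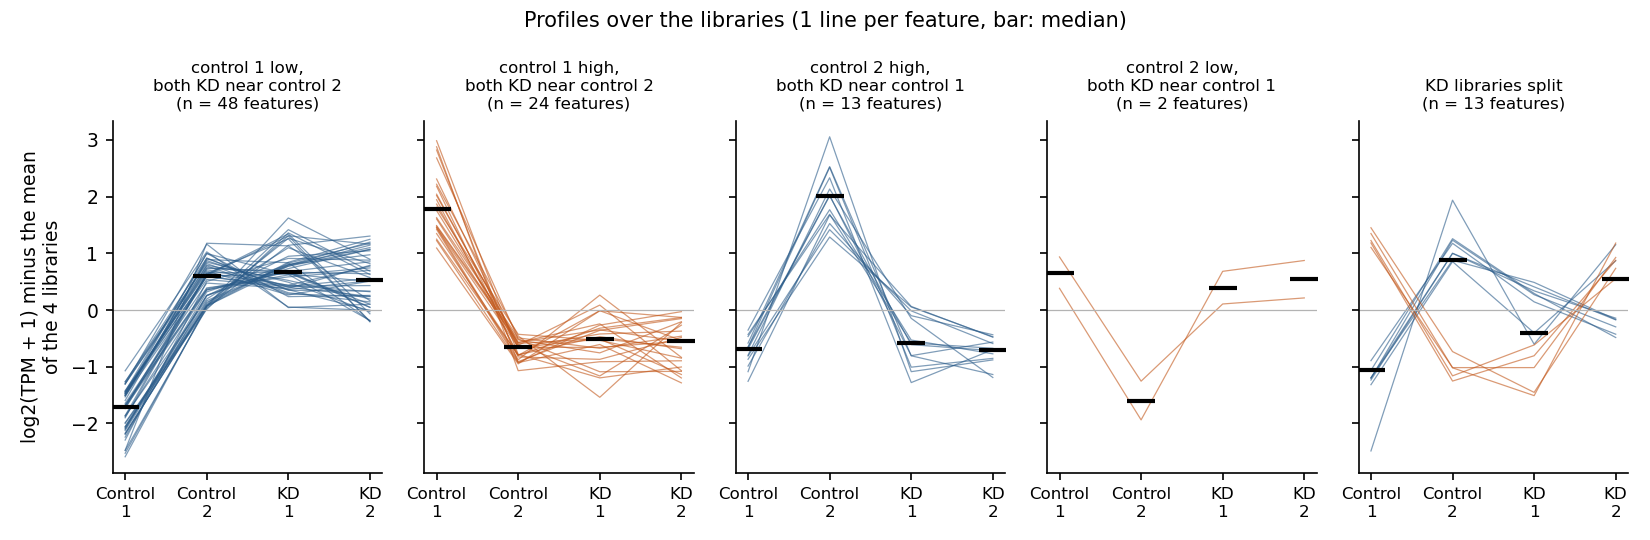
Level of each chosen feature in control 1, control 2, KD 1 and KD 2 (x axis), as log2(TPM + 1) minus its mean over the 4 libraries (y axis), with 1 line per feature, coloured by which control is higher, and black bars for the median, in 5 panels by the place of the KD libraries. Control 1 is the low library in 48 features and the high library in 24, control 2 is high in 13 and low in 2, and the KD libraries are split in the last 13.

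In the remaining 13 features the KD libraries lay on opposite sides of the midpoint, and in 11 of them control 1 paired with KD 2 and control 2 with KD 1. All 5 split features with control 1 higher had this arrangement, as did 6 of the 8 with control 2 higher. The sign of the differences, a looser measure, can be compared in all 100 features. The control and KD differences (1 minus 2) had opposite signs in 62 features, the 11 among them. The differences had the same sign in 38, against 33.6% of tested features. WNGS01164437.2180492 had a TPM of 4.98 in control 1, 0.106 in control 2, 0.506 in KD 1 and 3.84 in KD 2, from 36, 1, 5 and 34 reads over 485 bases. Control 1 and KD 2 were the high libraries. Its ratio of read shares between the controls was 44.5, with an exact 95% interval from 7.49 to 1805. Another feature had 25, 0, 0 and 26 reads in control 1, control 2, KD 1 and KD 2, a TPM of 3.35, 0, 0 and 2.84. A further one had 6.25 in control 1, 0.405 in control 2, 0 in KD 1 and 5.45 in KD 2, from 59, 5, 0 and 63 reads. It had the largest KD difference of all 100 features, 2.69 on the log2 scale.

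Where control 2 was higher, the split features were more graded. WNGS01162647.1989729_1_covsplit had a TPM of 1.07 in control 1, 10.2 in control 2, 4.74 in KD 1 and 2.87 in KD 2, from 17, 212, 103 and 56 reads over 1067 bases. Both KD libraries lay between the controls, KD 1 at 0.605 and KD 2 at 0.372 of the distance from the lower to the higher control. Its ratio of read shares was 10.1, with an exact 95% interval from 6.16 to 17.7. WNGS01005680.408569, the feature with the largest control difference of all, had a TPM of 0.597 in control 1, 33.2 in control 2, 4.88 in KD 1 and 18.9 in KD 2. Here KD 2 was the higher KD library, one of the 2 features with the opposite arrangement. The values rested on 6, 437, 67 and 232 reads over 674 bases, and the ratio of read shares was 58.9, with an exact 95% interval from 26.9 to 162.

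The place of each KD library was then expressed on a scale on which the lower control is 0 and the higher control is 1. In the 31 features with control 1 higher, the median place was 0.0853 for KD 1 and 0.114 for KD 2, close to the lower control. KD 1 lay below the lower control in 10, between the controls in 20 and above the higher control in 1, and KD 2 in 8, 22 and 1. In the 69 features with control 2 higher, the median place was 0.883 for KD 1 and 0.736 for KD 2, close to the higher control. KD 1 lay above the higher control in 26, between the controls in 37 and below the lower control in 6, and KD 2 in 25, 37 and 7. In both sets the KD libraries thus lay towards control 2.

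**Figure D3:**
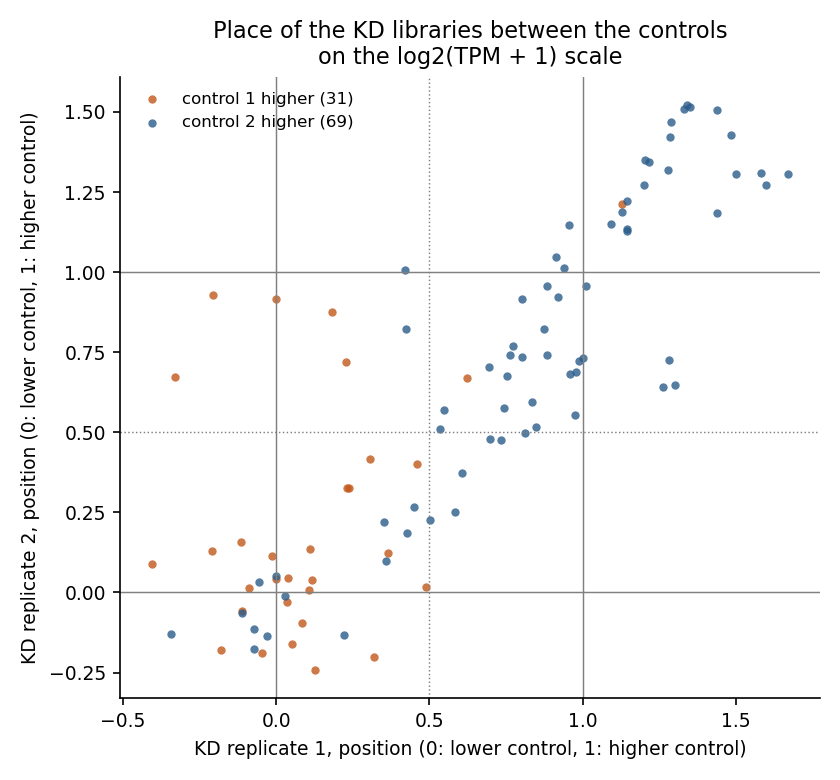
Place of each chosen feature between the controls in KD 1 (x axis) and KD 2 (y axis), with 0 for the lower and 1 for the higher control on the log2(TPM + 1) scale, for features with control 1 higher and with control 2 higher. The median place is 0.0853 and 0.114 where control 1 is higher, and 0.883 and 0.736 where control 2 is higher.

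A place of the KD libraries nearer control 2 was already common in features with smaller control differences. Both KD libraries lay nearer control 2 in 48.8% of the 13911 tested features with a control difference under 0.5, in 62.1% of 5888 at 0.5 to 1, in 68.5% of 1441 at 1 to 1.5 and in 69.0% of 326 at 1.5 to 2. For the 108 features at 2 or more, with the 8 left out later still included, it was 70.4%. These pooled shares hid opposite moves by direction. With control 1 higher the share was 57.3% of 103 features at 1.5 to 2 and 79.4% of only 34 at 2 or more. With control 2 higher it was 74.4% of 223 and 66.2% of 74. Among the 100 chosen features, without the 8, it was 24 of 31 and 48 of 69. These directions were not tested against each other, and the features of 4 libraries are not replicates. The share with both nearer control 1 was 17.6% of the 108 against 12.3% in the bin below. The split share was 27.3% in the lowest bin and 12.0% in the highest. Among the 72 chosen features with at least 100 recovered reads, 52 had both KD libraries nearer control 2, 11 nearer control 1 and 9 split.

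**Figure D4:**
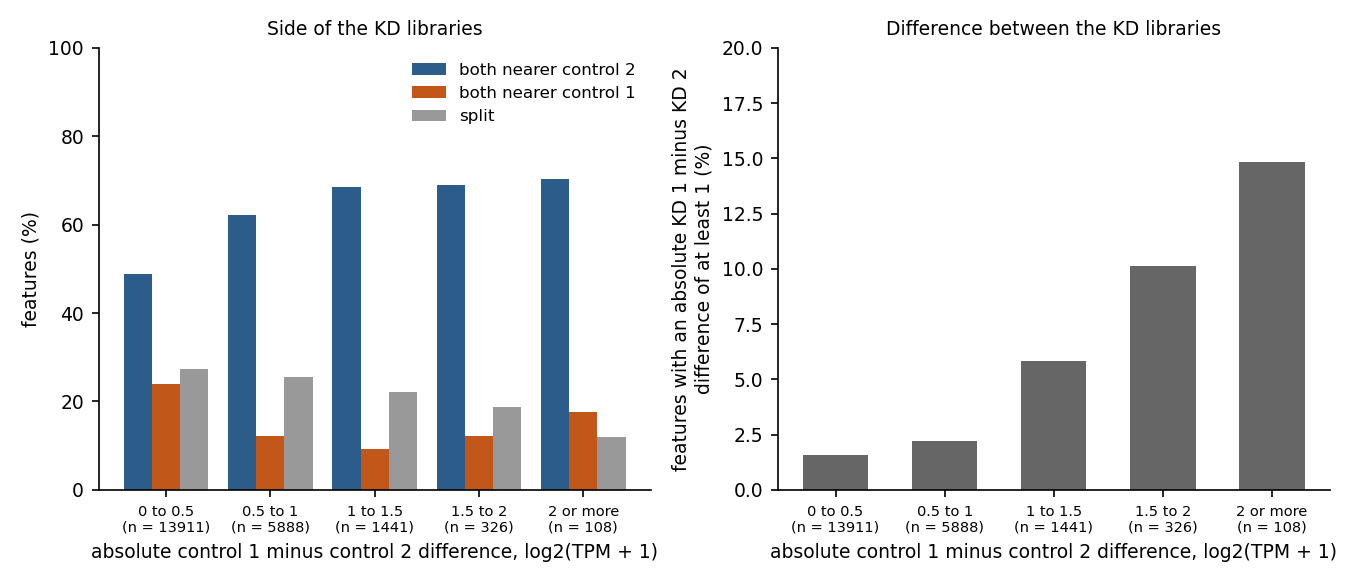
Left, percent of tested features with both KD libraries nearer control 2, both nearer control 1, or split, by the absolute control difference in log2(TPM + 1). Right, percent of the same features with an absolute KD 1 minus KD 2 difference of at least 1, which is 1.57% in the lowest bin and 14.8% in the highest. The share nearer control 2 is 48.8% in the bin from 0 to 0.5, 69.0% from 1.5 to 2 and 70.4% at 2 or more, where all 108 features past the limit are counted.

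The KD libraries, which the limit on the control difference did not use, differed less from each other in these features than the controls, whose difference had been chosen to be large. The KD difference was at least 2 in 2 of 100 features, against 0.115% of tested features, and at least 1 in 15 of 100, against 2.22%. Its median was 0.34 on the log2 scale, against 0.24 over all tested features and 2.31 for the control difference of the same features. It was smaller than the control difference in 98 of the 100 features, against 65.9% of tested features. The choice of large control differences nearly fixed this count. With at least 100 recovered reads, 10 of 72 features, or 13.9%, had a KD difference of at least 1, against 1.28% of 17155 tested features. Tested features with a control difference of 1.5 to 2 had a median KD difference of 0.42, above that of the chosen features, and 10.1% of them had one of at least 1. With 1 library on each side there was no replicate to test these differences. Of the 15 features with a KD difference of at least 1, 7 were split, 4 were low and 3 high in control 1, and 1 was high in control 2. KD 1 was the higher KD library in 53 features and KD 2 in 47.

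Comparison of the groups asked whether any of these features differed between KD and control, a contrast that the choice of features used in part. In the limma test on log2(TPM + 1), with Benjamini-Hochberg adjustment, 62 of 21674 tested features, or 0.286%, had an adjusted p under 0.05, 20 higher (0.0923%) and 42 lower (0.194%) in KD. None of the 100 chosen features was among them, and nothing can be read from this, since a control difference of at least 2 fixes a large spread within the controls and the separated features had been left out. At an unadjusted p under 0.05 there were 18 of 100, against 9.27% of tested features, and limma voom on recovered reads called 0 of 100, against 0.482% of 37545 features. The smallest limma adjusted p of a chosen feature was 0.365. Their median standard error was 0.68 on the log2 scale, against 0.28 over all tested features, and their median absolute log2 fold change was 1.12, against 0.26. The fold change was positive in 56 and negative in 44, with a median of 0.32, against −0.03 over all tested features. A KD pair near either of the controls, chosen to lie far apart, gives a large fold change, so that its size follows in part from the choice. Its sign follows in part from which control was higher and which one KD lay near. Nothing is read from these values.

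Single values of the named features are from limma on the log2(TPM + 1) scale with n = 2 in each group. The log2 fold change of KD against control was −1.81 (SE 1.10, adjusted p = 0.654) for WNGS01115803.1531288_1_covsplit and 0.55 (SE 1.31, adjusted p = 0.902) for WNGS01005680.408569. For WNGS01164437.2180492 it was 0.07 (SE 0.84, adjusted p = 0.984) and for WNGS01162647.1989729_1_covsplit −0.03 (SE 0.72, adjusted p = 0.992). KD values did not overlap with control values in 30 of the 100 features, against 41.2% of tested features. KD was higher in 22 and lower in 8, against 18.0% and 23.2%, and the removal of the separated features had used this contrast. An exact test of 2 against 2 libraries cannot go below p = 0.333 (two-sided).

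The limma result depended on which control was kept. With control 1 left out, 20 of the 100 chosen features were called, 4 higher and 16 lower in KD, against 1.69% of tested features. With control 2 left out 82 were called, 56 higher and 26 lower, against 11.7%. With KD 1 left out 5 were called, against 0.752%, and with KD 2 left out 4, against 0.835%. Leaving out a control also takes the control difference, for which the features were chosen, out of the spread. The control that was kept had itself been chosen to lie far from the other one. Both KD libraries lay nearer control 2 in 72 of the chosen features and nearer control 1 in 15. With a control left out, the calls among the chosen features therefore follow in part from the choice, and nothing is read from them. Each fit with 1 library left out takes the spread of the lone library from the group that kept both.

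The chosen features were shorter than the tested features and rested on few reads in the lower control. Their median length was 559 bases, with a range from 160 to 5582, against 926 over tested features, and 45 of 100 were shorter than 500 bases, against 27.1%. They had 17 to 54699 reads over the 4 libraries, with a median of 243, against 401. The lower control held 0 reads in 13 features, 1 to 3 in 23 and fewer than 10 in 46, with a median of 12. The higher control held 10 to 16497 reads, with a median of 131. In features with few reads in the lower control the size of the difference is therefore poorly known. Their mean TPM ranged from 1.09 to 357, with a median of 6.50, against 5.43, close to that of tested features in general. The suffix _covsplit, whose meaning the sources used here do not give, was carried by 49 of 100 and by 49.7% of tested features.

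The summed TPM followed from the choice in the controls, since control 2 was the higher in 69 features, the most abundant included. The 100 features together made up 875 TPM in control 1, 2416 in control 2, 2333 in KD 1 and 2445 in KD 2. This is 0.0875% of all TPM in control 1 and between 0.233% and 0.245% in the others. The most abundant feature contributed 95.6, 419, 393 and 521 of these TPM.

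The 100 features lay on 56 scaffolds, 35 of them with 1 chosen feature. One scaffold held 10, and it also held 760 of the tested features, or 3.51%. Some were close in feature number. A total of 13 chosen features had another one within 10 feature numbers on the same scaffold, which made 8 pairs. In all 8 the same control was higher, and in 7 the KD libraries also had the same placement. The same control was higher in 56.3% of the 21136 pairs of tested features within the same distance. Those pairs were not limited to a control difference of at least 2, as the chosen features were. The shares can therefore not be compared, and nothing is concluded from them. Some of the 8 pairs also had a feature in common, so that they are not 8 separate cases. One pair shared a feature number and carried different part numbers. Its parts had a TPM of 6.14 and 1.63 in control 1, 39.1 and 14.0 in control 2, 64.1 and 31.3 in KD 1, and 68.6 and 35.2 in KD 2. Both parts were lowest in control 1 and highest in KD 2. Another 2 tested features outside the 100 shared a number with a chosen feature. In both the same control was higher, by 1.04 and 1.52 on the log2 scale. Whether parts of 1 number or neighbours belong to 1 transcript was not tested, so that they cannot be taken as separate observations.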

How the data were processed

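RNA-seq of 2 control and 2 *Dnmt1* KD hemocyte samples was used, grouped by the sample labels. The deposited values are TPM, which the authors made from reads mapped with HISAT2 2.2.1, per the submitters' processing notes, and counted with featureCounts after *Dnmt1* exons overlapping the injected RNA had been removed. The sources used here do not name the genome build. No other per-sample column was present.

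The chosen features and the lists were set with earlier results of these data known. Levels were compared as log2(TPM + 1). Whole reads and lengths were recovered from the ratios of TPM values between libraries for 100% of 58226 features above 0, with a relative tolerance of 1e-11 and 5 of them by a search over lengths. The smallest whole numbers were taken, so that depth is a lower bound.

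KD against control was tested with limma 3.58.1 with a mean-variance trend in R 4.3.3 on the 21674 features whose mean TPM reached 1, two-sided, with Benjamini-Hochberg adjustment and a threshold of 0.05. limma, the recovery and the placement were checked on simulated data. The rest was done in Python 3.11.15 (pandas 2.3.3, numpy 2.4.6, matplotlib 3.10.9, scipy 1.17.1).

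Named by rule were, for each control as the higher one, the feature with the largest difference and the one with the largest difference among split features. The other features given with values, without an ID, were chosen after their values were seen, except those just inside and outside the limit. Alternatives were other pseudocounts, filters, scalings, limits and limma settings, a replicate block and each library left out. Hemocyte marker lists had been planned and were not run, since no ID is paired with a gene name.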

Additional observations from a re-analysis of the deposited data

How the results depend on the processing

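The number of chosen features depended on the pseudocount and the scaling. It was 631 with a pseudocount of 0.1 (184 with control 1 higher and 447 with control 2 higher) and 262 with 0.5 (73 and 189). It was 211 (50 and 161) when TPM was rescaled without the 10 highest features, and all 100 features were among the chosen in each of these. With a mean TPM of at least 5 it was 56, of which 10 were higher in control 1 (17.9%), and with a control difference of at least 3 it was 10, of which 5 were higher in each control (50%). With at least 100 recovered reads 16 features were higher in control 1. The mean TPM and the reads include the KD libraries, so that these 2 cuts are not even between the directions. Both KD libraries lay nearer the lower control, nearer the higher control or split in 94, 432 and 105 features with a pseudocount of 0.1, in 57, 159 and 46 with 0.5, and in 8, 1 and 1 with a control difference of at least 3, where 60% lay nearer control 2. Without the 10 highest features 128 lay nearer the higher control and 37 were split, with a mean TPM of at least 5 12 lay nearer the lower control and 6 were split, and with at least 100 reads 23 lay nearer the lower control. A KD difference of at least 2 was found in 40 features with a pseudocount of 0.1, in 7 with 0.5, in 1 with at least 100 reads, and in 0 with a mean TPM of at least 5 or a control difference of at least 3. The stricter limits leave fewer features by construction, and for the other numbers the cause was not tested. Control 2 was the higher control in most chosen features under each of these alternatives but the control difference of at least 3, where the controls were even, and both KD libraries lay nearer control 2 in most of them under each.

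limma calls over all features numbered 26 (7 higher and 19 lower in KD) with a pseudocount of 0.1, 31 (11 and 20) with a mean TPM of at least 5, and 30 (11 and 19) without the 10 highest features. They numbered 181 (64 and 117) with limma voom on recovered reads and 155 (47 and 108) at an adjusted p under 0.1, and 13 were higher in KD without the trend. Without a filter limma called 0 (0 and 0) of 58226 features, with 4116 at an unadjusted p under 0.05. With 1 library left out the calls ranged from 163 to 2544, from 56 to 1384 higher and from 101 to 1160 lower in KD, and from 4 to 82 among the chosen features. Without control 1 there were 366 calls and without control 2 there were 2544. With a control left out, the calls among the chosen features follow in part from their choice. The cause of the other changes was not tested.

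The labels give replicate numbers and do not say whether they pair the samples, so that they were not used as pairs. Across features, the correlation of the control difference (1 minus 2) with the KD difference was −0.34. With the replicate number as a block limma called 509 of 21674 features (230 and 279), 40 of them among the 100 chosen. WNGS01115803.1531288_1_covsplit passed the threshold with a log2 fold change of −1.81. The median standard error in this fit was 0.40 for the chosen and for all tested features, against 0.68 and 0.28 without the block. The large control difference of the chosen features thus hardly showed in it, and nothing is read from the 40 calls. With the numbers crossed between the groups, an alternative chosen after seeing the data, 188 were called (79 and 109), and 0 of the chosen.

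The fold change of WNGS01162647.1989729_1_covsplit, near 0, turned positive after median ratio scaling (0.0043), without the 10 highest features (0.064), and with the pseudocounts 0.1 (0.13) and 0.5 (0.040), and ranged from −1.24 to 1.19 with 1 library left out. In the same way WNGS01115803.1531288_1_covsplit ranged from −3.78 to 0.17, WNGS01005680.408569 from −1.66 to 2.76 and WNGS01164437.2180492 from −1.15 to 1.29. No set of features could be formed with a control left out, since the limit needs both, and no KD placement or KD difference with a KD library left out. Few reads in the lower control limit the precision of the control difference in 46 of the 100 features.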
